A study of Drosophila melanogaster with 3 samples.

Results

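The transfer RNA genes of Drosophila melanogaster were taken as every gene whose symbol starts with tRNA: on the main chromosome arms of the Ensembl 115 gene models (genome release 6, dm6), which gave 295 of 18164 genes. Binding near them was read from chromatin immunoprecipitation with sequencing (ChIP-seq) of heat shock factor (Hsf) in whole embryos of mixed sex aged 0-24 h, from 1 transgenic line that stably carries Hsf fused to GFP at its C terminus, precipitated with an antibody against GFP. All 3 samples are biological replicates of this 1 group, so there is no untreated, mutant or wild-type group to set against it, and the labels name no treatment. A region was assigned to a tRNA gene when its summit, the peak position the authors gave within it, lay within 500 bp of the gene. A region near several tRNA genes was counted once. This gave 118 regions of the 30000 in the list made from the pooled replicates, called tRNA regions here, against 29882 other regions. The authors label this list as peaks and background, so a region in it need not be a site bound by Hsf.

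Transfer RNA genes are short and are transcribed by RNA polymerase III. Their promoter lies inside the gene, in an A box near the start and a B box near the end of the transcribed part. Both are bound by the factor TFIIIC, which places TFIIIB just upstream, and a run of T ends transcription. Hsf is the transcription factor that activates heat shock genes through repeats of a short unit, the heat shock element, and it acts on genes of RNA polymerase II. Many tRNA genes of the fly stand in clusters of near-identical copies.

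The sequences that follow show the kinds of site found, read from the release 6 genome on the strand of the tRNA gene. The first runs from the summit of the strongest tRNA region to the far end of the gene (3R:8669081-8669370, minus strand), with tRNA:Tyr-GTA-1-8 in capitals.
tRNA:Tyr-GTA-1-8: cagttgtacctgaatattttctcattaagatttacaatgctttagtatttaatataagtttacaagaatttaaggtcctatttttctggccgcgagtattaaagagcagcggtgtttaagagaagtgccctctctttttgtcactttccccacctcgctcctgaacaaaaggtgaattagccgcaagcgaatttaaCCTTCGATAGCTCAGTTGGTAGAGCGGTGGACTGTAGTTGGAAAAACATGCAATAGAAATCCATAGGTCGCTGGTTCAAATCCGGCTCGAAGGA
The next ones are whole tRNA genes that had a summit on the gene itself, with the word GTTCNANNC, used here for the B box, in capitals. They stand for 5 isotypes: Ser (2L:3173003-3173084, minus strand), Arg (X:14014814-14014886, plus strand), Glu (3L:1401781-1401852, plus strand), Gln (2L:2010646-2010717, minus strand) and Tyr (3R:8668612-8668705, minus strand).
tRNA:Ser-AGA-2-4: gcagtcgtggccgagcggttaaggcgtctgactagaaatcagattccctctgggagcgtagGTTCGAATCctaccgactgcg
tRNA:Arg-TCG-2-1: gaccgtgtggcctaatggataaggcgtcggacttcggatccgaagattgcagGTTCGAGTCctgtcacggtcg
tRNA:Glu-CTC-3-9: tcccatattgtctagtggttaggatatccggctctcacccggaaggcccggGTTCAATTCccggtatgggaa
tRNA:Gln-CTG-2-4: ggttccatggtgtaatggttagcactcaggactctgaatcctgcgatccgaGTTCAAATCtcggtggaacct
tRNA:Tyr-GTA-1-7: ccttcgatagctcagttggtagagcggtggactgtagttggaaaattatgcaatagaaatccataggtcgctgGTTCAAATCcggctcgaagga
The last is the stretch around the heat shock element near tRNA:Lys-TTT-1-1 (2L:8290957-8290997, plus strand), with its 3 units in capitals. The unit TAA holds 1 mismatch to GAA.
tRNA:Lys-TTT-1-1 element: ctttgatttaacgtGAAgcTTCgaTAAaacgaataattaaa

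The authors gave each region a signal, a score without a unit set against a control, whose scale belongs to its own list. They also gave an optimal list of 5756 regions that passed the irreproducible discovery rate (IDR), which compares the ranking of regions across replicates. These were exactly the 5756 regions of highest pooled signal, so membership of the optimal list and a high pooled signal are 1 measure here, not separate evidence. Of the 118 tRNA regions, 16 were in the optimal list (13.6%, 95% Wilson interval 8.52 to 20.9), where the share over all pooled regions was 19.2%. The interval covers counting error over regions only, and the depth of the libraries is unknown. The median signal was 43.1 for tRNA regions and 41.4 for other regions. Signals of tRNA regions spanned 24.8 to 848, and those of other regions reached 3523. The lowest tRNA region in it had 98.1, near tRNA:Val-AAC-2-1 and tRNA:Ser-CGA-1-4, and the highest outside it had 95.4, near tRNA:Ile-AAT-1-9.

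Counted by gene, 145 of the 295 tRNA genes had a tRNA region (49.2%, interval 43.5 to 54.8), where 50.3% of the 17869 other genes had a region within 500 bp of a transcription start site (TSS). For the optimal list the count was 20 tRNA genes (6.78%, interval 4.43 to 10.2), where 21.8% of other genes had one. Both intervals treat genes as independent, although neighbouring genes can share a region, so they can be too narrow. The distance was taken to the whole tRNA gene and to the start sites of other genes, so these windows are not of the same form. Of the regions, 67 served 1 tRNA gene, 41 served 2, 8 served 3 and 2 served 4. One of the regions serving 4 genes had copies of the Arg gene with anticodon ACG around it (3R:8140558-8140973, signal 47.8), and the other had tRNA:Cys-GCA-1-3 and its neighbours around it (3L:3096043-3096458, signal 62.0). These genes lay within 500 bp of the summit and partly outside the region itself.

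Summits lay on both sides of the tRNA genes. Offsets were measured from the centre of the nearest tRNA gene and are negative upstream. Their median was -2 bp, with quartiles of -160.5 and 144 bp, and 61 of 118 summits were upstream. A summit stood on the tRNA gene itself in 19 regions and within 100 bp of its centre in 41. None of these 41 was in the optimal list, and 0 of 41 allows a share of up to 7.32%. For the 19 on the gene, 0 allows up to 15.8%. Both bounds treat regions as independent. The limit of 100 bp was chosen after seeing these data, inside the nearest optimal summit at 116 bp. The 0 of 41 follows in part from that choice and was not tested. The bound of 7.32% takes no account of it, so it cannot serve as a limit. Between 100 and 200 bp, 5 of 31 were optimal, between 200 and 300 bp 7 of 23, and farther out 4 of 23. The 16 optimal summits stood 116 to 446 bp from a centre, with a median of 266.5 bp. These distances are of summits, and the optimal regions of tRNA:Val-AAC-2-1 and tRNA:Thr-AGT-1-4 contained the whole gene. Pooled regions can also overlap one another. The near-centre regions 2R:18639308-18639723 and 2R:19414758-19415173 each overlapped an optimal region. Counted by overlap of 1 bp with an optimal region, 16.1% of the 118 were optimal.

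**Figure D1:**
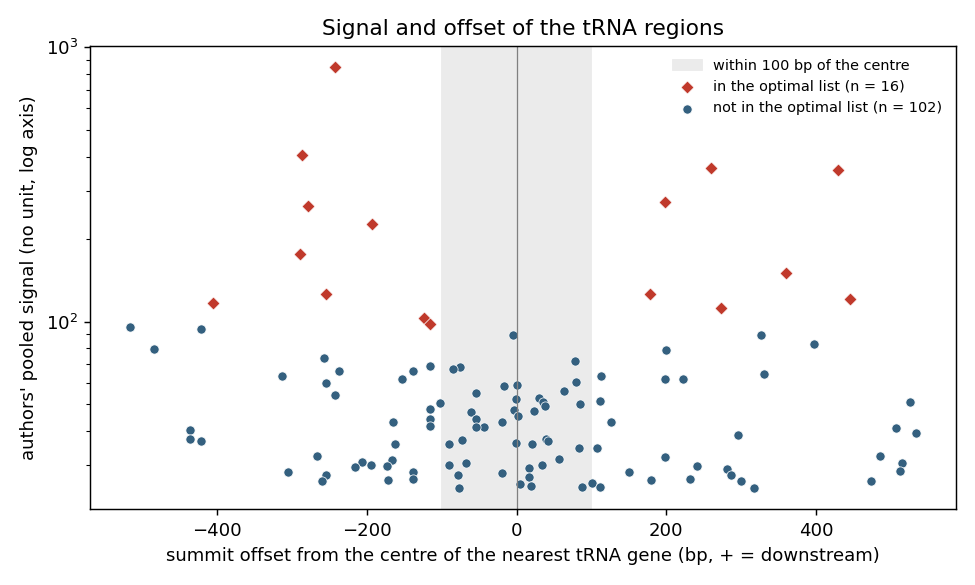
Each point is 1 of the 118 tRNA regions. The x axis gives the offset of its summit from the centre of the nearest tRNA gene in bp and the y axis the authors' pooled signal on a log axis, with the span within 100 bp of the centre shaded. That span was chosen after seeing the data. The summits of the 16 optimal regions (diamonds) all lie outside it, and the highest signal inside it is 89.3.

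The highest signal of a summit on a tRNA gene was 89.3, at tRNA:Ser-AGA-2-4, whose sequence is given above. Its region overlapped one in replicate 1 at rank 3552 and one in replicate 2 at rank 13394, and none in replicate 3. The summit on tRNA:Arg-TCG-2-1 had a signal of 52.4, and that on tRNA:Glu-CTC-3-9 had 45.4, both in replicates 1 and 3. The summits on tRNA:Tyr-GTA-1-7 and tRNA:Gln-CTG-2-4 had 36.8 and 36.1. None of the 19 was overlapped in all 3 replicates' own lists, and the like share for other pooled regions is not given here.

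Pooled summits were denser within 300 bp of tRNA centres than over the arms as a whole. They were sparser at 300 to 400 bp and denser again in each bin from 400 to 5000 bp. Within 100 bp of a tRNA centre there were 701 pooled summits per Mb, against 1091 within 100 bp of a protein-coding TSS and 224 over the arms. At 100 to 200 bp the values were 606 at tRNA genes and 646 at protein-coding TSSs, and at 200 to 300 bp 557 and 448. Optimal summits numbered 0, 101 and 169 per Mb in these 3 bins at tRNA genes. At protein-coding TSSs they numbered 375, 255 and 121, with 43.0 over the arms. The bin within 100 bp ends at the limit chosen after seeing these data. Its 0 at tRNA genes follows in part from that choice and was not tested. At 300 to 400 bp there were 210 pooled and 26.2 optimal summits per Mb at tRNA genes, and 319 and 69.8 at protein-coding TSSs. From 400 to 500 bp the values were 279 and 83.7 at tRNA genes, and 276 and 55.5 at protein-coding TSSs. From 500 to 1000 bp they were 376 and 71.6, and 271 and 42.1. Those from 2000 to 5000 bp were 279 and 50.6, and 200 and 26.7. The bins within 500 bp of tRNA genes rest on few summits, 7 in the densest optimal one.

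**Figure D2:**
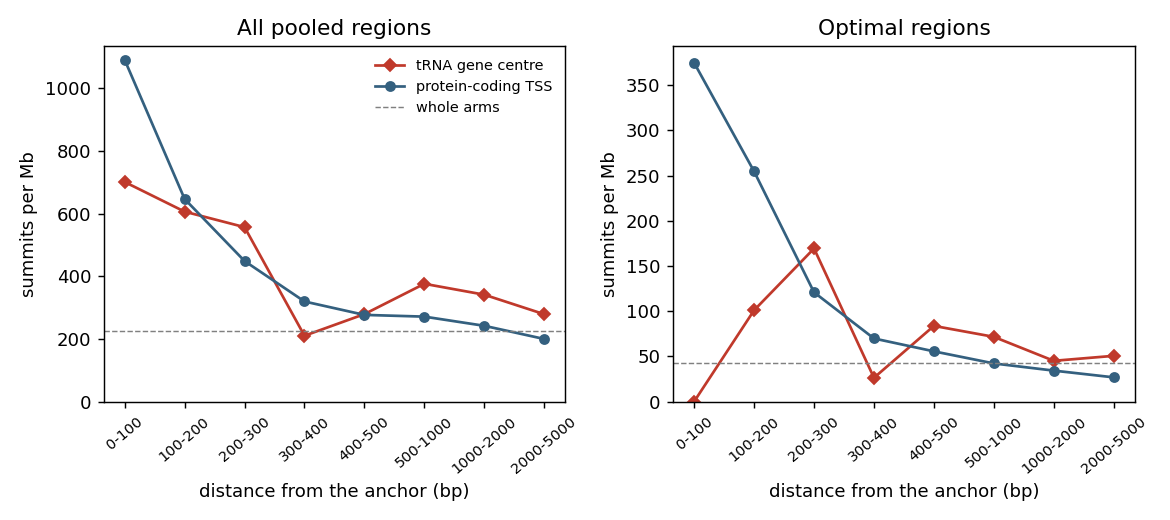
Summits per Mb (y axis) by distance in bp (x axis) from a tRNA gene centre or a protein-coding TSS, for all pooled regions on the left and optimal regions on the right, with the density over whole arms dashed. In the first bin pooled summits reach 701 per Mb at tRNA genes and 1091 at protein-coding TSSs, and optimal ones 0 and 375. That bin ends at the limit chosen after seeing the data.

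The strongest tRNA region (3R:8669199-8669549) had a signal of 848 and rank 126 of 30000. Its summit stood 243 bp upstream of the centre of tRNA:Tyr-GTA-1-8, in an intron of CG8036 and 248 bp from a CG8036 start site. In the replicates' own lists it had signals of 358, 256 and 234 in replicates 1, 2 and 3, at ranks 98, 197 and 113. It was thus near the top of each list. The neighbouring copy tRNA:Tyr-GTA-1-7 carried the summit with a signal of 36.8 described above.

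The next region, with a signal of 404 near tRNA:Gln-TTG-2-1 on X, had its summit in an intron of CG12535, 8033 bp from the nearest start site of another gene. Its ranks were 533, 941 and 646 in replicates 1, 2 and 3. A region of 363 served tRNA:Asp-GTC-1-5 together with its neighbour tRNA:Asp-GTC-1-4 and stood 91 bp from the start site of Sema1a, a transmembrane semaphorin of axon guidance. The region near tRNA:Val-CAC-2-5 had 358, in an intron of Naam, which encodes a nicotinamidase. That near tRNA:Phe-GAA-1-2 had 273 and lay 71 bp from the start site of RpL17, a ribosomal protein gene. The region of tRNA:Trp-CCA-2-2 and tRNA:Gly-GCC-1-9 had 264, 44 bp from the start site of CG30122, and that of tRNA:His-GTG-1-3 had 226, 93 bp from CG8490. All of these were found in each replicate's own list.

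Lower in the optimal list, tRNA:Leu-TAA-2-1 had a signal of 177 near CG13605. The region of tRNA:Gly-GCC-1-13 had 150, 71 bp from the start site of tud, a germ plasm gene. Signals were 126 for tRNA:Arg-CCT-1-3 with tRNA:Arg-CCT-1-2 (nearest other gene CG16898), 126 for tRNA:Glu-TTC-1-5 (snoRNA:185) and 121 for tRNA:Trp-CCA-2-3 (CG30389). They were 117 for tRNA:Val-CAC-1-1 (CG14324), 112 for tRNA:Lys-TTT-1-1 (lncRNA:CR43752), 103 for tRNA:Thr-AGT-1-4 (CG31279) and 98.1 for tRNA:Val-AAC-2-1 (snoRNA:hts-a). Of the 16 optimal regions, 9 overlapped a region among the 5756 strongest of all 3 replicates' own lists, 3 did so in 2 replicates and 4 in 1. The region near tRNA:Ile-AAT-1-9, outside the optimal list, did so in all 3, at ranks 1482, 4558 and 1506, and the optimal one of tRNA:Arg-CCT-1-3 in 1. The same counts for other optimal regions are not given here, so whether these are usual cannot be said.

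In 25 of the 118 tRNA regions another gene's start site lay no farther than 500 bp from the summit (21.2%), where the share was 32.4% over all pooled regions. Among optimal tRNA regions it was 12 of 16, against 52.4% of the other optimal regions. Of the 25 tRNA regions with such a start site 12 were optimal (48.0%), and of the 93 without one 4 were (4.30%). The same shares among other regions were 31.0% and 13.6%. The 4 optimal regions without one were those of tRNA:Gln-TTG-2-1, tRNA:Arg-CCT-1-3, tRNA:Val-CAC-1-1 and tRNA:Lys-TTT-1-1. In 9 tRNA regions, 6 of them optimal, the other gene's start site was nearer than the tRNA gene. Which of the neighbouring genes a region belongs to was not tested.

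In each replicate's own list, 164, 52 and 94 regions were tRNA regions in replicates 1, 2 and 3. Among the 5756 strongest of each list, a length set to that of the optimal list, the share of tRNA regions was 13.4% in replicate 1, where 19.2% of all its regions were called, 28.8% in replicate 2, where 20.4% were, and 17.0% in replicate 3, where 19.2% were. The share was lower than that of other regions in 2 replicates and higher in replicate 2. The difference, tRNA regions minus other regions, averaged 0.164 ± 7.42 percentage points (SD, n = 3), and an exact two-sided sign-flip permutation test over the replicates gave p = 1, with 0.25 the smallest p that 3 replicates allow. The difference was 3.15, -3.99 and 1.33 points without replicate 1, 2 and 3, so its sign turned without replicate 2. It was -10.2 points with a window of 200 bp and 0.728 points with one of 1000 bp.

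For tRNA regions with the summit within 100 bp of a centre, a limit chosen after seeing the data, 6 of 71, 0 of 9 and 0 of 31 were among the strongest in replicates 1, 2 and 3. The limit was taken from the pooled list, which these replicates make up, so the counts are a description and were not tested. Farther from the centre, 16 of 93, 15 of 43 and 16 of 63 were among the strongest. The number of near-centre regions thus differed by replicate, from 9 in replicate 2 to 71 in replicate 1. Regions within 100 bp of a protein-coding TSS numbered 2725 in replicate 2 and 4266 in replicate 1. Of the 41 pooled regions near a centre, 38, 7 and 26 were overlapped in replicates 1, 2 and 3, and of the 77 farther out 67, 37 and 58 were. Such counts for pooled regions away from tRNA genes are not given here. The part of depth or library quality in these counts was not tested.

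**Figure D3:**
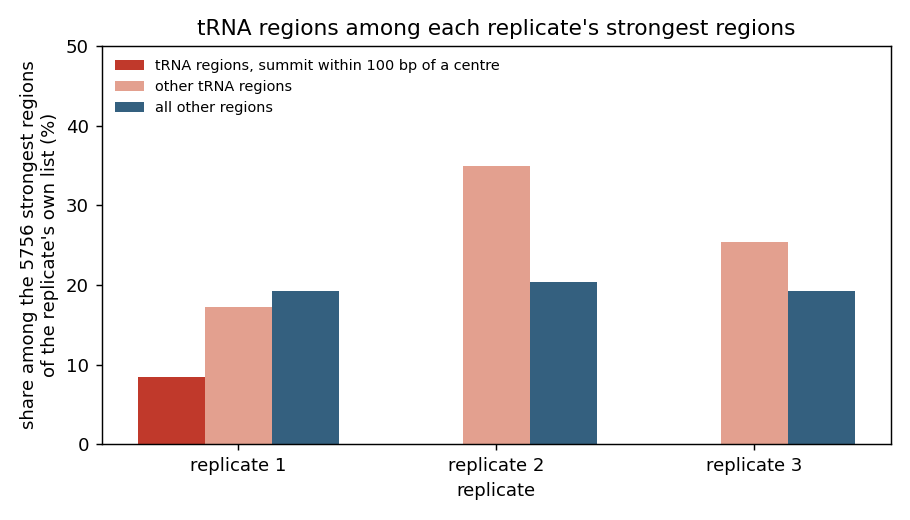
Bars give, for each replicate (x axis), the share in percent (y axis) of regions among the 5756 strongest of the replicate's own list, for tRNA regions near a centre, other tRNA regions and all other regions. The near-centre share is 8.45% in replicate 1 and 0% in replicates 2 and 3, and that of all other regions is 19.2%, 20.4% and 19.2%.

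All isotypes other than selenocysteine had at least 1 gene with a region. The share was highest for Phe (6 of 8 genes), Ala (12 of 17) and Asn (7 of 10), and lowest for Lys (4 of 19) and Met (1 of 6), beside the single SeC gene with 0. Ala and Asn had no optimal region. The strongest regions of isotypes without an optimal one were those of tRNA:Ile-AAT-1-9 (95.4), tRNA:Pro-AGG-1-2 (94.0), tRNA:Ala-AGC-2-6 (66.1), tRNA:Cys-GCA-1-3 (62.0), tRNA:Asn-GTT-1-8 (59.0), tRNA:iMet-CAT-1-1 (55.0) and tRNA:Met-CAT-1-1 (44.2). Val had 3 optimal regions, and Gly and Trp had 2 each, 1 of them shared between Gly and Trp. Most isotypes have few genes, and copies in a cluster share regions, so these shares were not tested against each other.

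**Figure D4:**
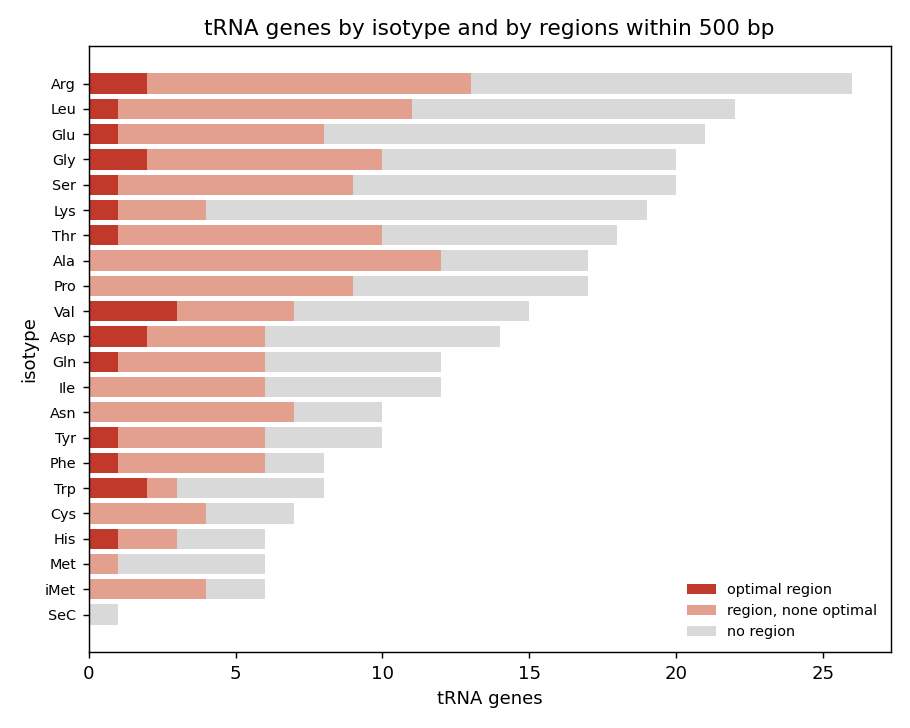
Bars give the number of tRNA genes (x axis) of each isotype (y axis), split into genes with an optimal region, with a region but none optimal, and with no region within 500 bp. Arg is the largest isotype, with 13 of 26 genes near a region and 2 near an optimal one, and Ala has 12 of 17 and 0.

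Of the 295 genes, 218 stood in 69 clusters of 2 or more, joined where neighbours were at most 5000 bp apart. Genes with a region numbered 45 of 78 in clusters of 5 or more (57.7%), 73 of 140 in clusters of 2 to 4 (52.1%) and 27 of 77 single genes (35.1%). Genes with an optimal region numbered 3, 11 and 6 in the same order. A window around clustered genes covers more sequence with tRNA genes in it, and 1 region can serve several. In the cluster at 3R:17617761-17631750, with 4 Ala, 3 Pro, 2 Thr and 2 Val genes, all 11 genes had a region, from 8 regions of which 1 was optimal, with signals of 28.4 to 117. In the other cluster of 11 genes, at 2R:6161535-6171759 with 4 Lys, 3 Arg, 3 Asn and 1 Ile genes, 4 genes had one, none optimal. The cluster of 8 at 2R:19725620-19729353, with 6 Glu and 2 iMet genes, had 4 genes with a region and 1 with an optimal one. By arm, genes with an optimal region were 10 of 100 on 2R, 5 of 79 on 3R, 0 of 49 on 3L, 3 of 41 on 2L and 2 of 26 on X. The shares of other genes with one were 21.3% on 2R, 23.5% on 3R, 22.6% on 3L, 20.1% on 2L and 21.0% on X. The 0 of 49 on 3L allows a share of up to 6.12%, and genes of a cluster can share a region, so they are not independent.

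Copy number bears on which reads can be placed. The 295 genes had 100 distinct sequences, of which 43 belonged to 2 or more genes, and no sequence belonged to more than 13. Uniqueness was measured as the share of 50-base words found once in the genome. Within 500 bp of a tRNA gene its median was 95.5% for genes with a region and 96.6% for those without, and it was 100% around protein-coding TSSs. For words touching the tRNA gene itself the median over all genes was 77.0%. The regions with a summit on a tRNA gene had a median of 93.0%, and the optimal tRNA regions 100%. How reads with several matches were treated is not given in the sources used here, and the part of unique sequence in the counts was not tested.

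Sequence words were searched as descriptions. GTTCNANNC was found in 274 of 295 tRNA genes (92.9%), on the gene's strand, and in 1.04% of 73-bp windows of the arms. TNGNNNAG, used for the A box, was found in the first 30 bases of 261 genes (88.5%) and in 7.77% of 30-bp windows. A run TTTT followed within 25 bases of 271 genes (91.9%) and was in 17.8% of 25-bp windows. Genes with a region had the B box word in 133 of 145 cases. The heat shock element, taken as 3 alternating GAA and TTC units spaced by 2 bases with at most 1 mismatch in the 9 fixed bases and covering both strands, occurred no farther than 100 bp from the summit in 7 of 118 tRNA regions (5.93%), where the share over all pooled regions was 5.18%. Among the optimal tRNA regions it was found in 1 of 16, that of tRNA:Lys-TTT-1-1, 59 bp from the summit and with 1 mismatch, where 6.18% of the other optimal regions had it. The shorter words GAANNTTC or TTCNNGAA, which overlap that element, were found in 12.7% of tRNA regions and 10.1% of other regions.

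Other genes of the RNA polymerase III system were listed beside the tRNA genes. None of the 100 genes of 5S rRNA, which all lie on 1 arm, had a region within 500 bp of its start. Of these, 4 are named as pseudogenes, and the median share of unique 50-base words in the 100 was 0%, so the count gives no limit on binding there. Among the other 10 RNA genes of the list, taken by symbol, 4 had a region and 3 an optimal one, where 50.3% and 21.8% of all genes other than tRNA genes did. The polymerase that transcribes each was not checked. The spliceosomal genes snRNA:U6:96Ab and snRNA:U6:96Ac shared a region of 325, and snRNA:7SKa, whose RNA holds back the elongation factor P-TEFb, had one of 129. Of 21 protein genes of the machinery, 18 had a region and 9 an optimal one, beside the same 50.3% and 21.8%. Those shares are over coding and noncoding genes together, and shares over protein-coding genes alone are not given here. The list was not tested. The highest were those of the TFIIIB subunits Bdp1 (1196, rank 53) and Brf (823, rank 133). Polr3E, a subunit of the polymerase, had 199, and La, which binds the ends of new transcripts, had 226. The 3 without a region were Maf1, a repressor of the polymerase, Polr3I, another of its subunits, and Tsen54, part of the endonuclease that splices tRNAs. No gene symbol in the models began with TfIIIC or GTF3C.

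The window limit cut between close neighbours. The farthest regions inside it were 481, 491 and 497 bp from tRNA:Ile-AAT-1-9, tRNA:Pro-CGG-2-2 and tRNA:Ile-AAT-1-8, with signals of 95.4, 51.2 and 39.4. The first ones outside were 516, 526 and 526 bp from tRNA:Gly-TCC-2-2, tRNA:Ser-TGA-1-1 and tRNA:iMet-CAT-1-4, with 44.3, 27.3 and 47.4. No region among these 6 was optimal.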

How the data were processed

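Per the labels, Hsf-GFP was measured by ChIP-seq in 3 biological replicates of embryos, sheared by sonication to 200-800 bp. The authors deposited narrowPeak lists on dm6 for each replicate, for the pooled replicates and for the optimal regions, each with a signal score of its own scale and a −log10 q value that was not used to rank. The software for alignment and peak calling is not given in the sources used, and depth is unknown. The pooled list is labelled as peaks and background used as input for the IDR. Lists on dm3 were not used.

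Distances were computed in Python 3.11.15 with pandas 2.3.3 to the genes of Ensembl 115, without transposable elements. A replicate's region counted as overlapping from 1 bp, so 1 such region can overlap several pooled regions. The 5756 strongest regions were taken per replicate. Functions were tested on simulated data. Named genes were those near optimal regions, the strongest of each isotype, the 3 largest clusters and regions at the limits. The members, lists and tests were chosen with earlier results of these data known. Alternatives were other windows, lists, replicates left out and word lengths. The values of 1 gene of the polymerase III list are not reported here.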

Additional observations from a re-analysis of the deposited data

How the results depend on the processing

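With a window of 200 bp there were 77 tRNA regions, 7.79% of them optimal, 29.5% of genes had one, 2.60% were nearer to another gene's start site, and the difference of shares over replicates was -10.2 points (exact permutation p = 0.25). With 1000 bp there were 181 regions and 63.1% of genes had one. Limited to regions overlapped in each replicate's list, 33 remained, 48.5% of them optimal, at 12.9% of genes. Every optimal tRNA region passed this limit, so it raises the share by construction. Counting only optimal regions above the median optimal signal gave 6.78%, a cut that lowers the share by construction. For neither is the share over all pooled regions given here, and 19.2% is not the value to set beside them. With summits within 100 bp of a centre, chosen after seeing the data, the optimal share was 0% and the difference -16.8 points.

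Leaving out 1 replicate, the difference ranged from -3.99 to 3.15 points, and the share of tRNA regions among the strongest of both others from 10.2% to 12.7%. That share is another measure than the optimal list. Without replicate 2 the difference turned negative. Clusters joined at 1000 bp held 64.4% of genes, and 36-base words gave a median uniqueness of 93.6%. The other 19 values kept their direction or stayed within their interval or limit. The cause of these changes was not tested. Unknown depth limits all counts of weak regions. No paired analysis was possible because there is 1 group.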
